A study of Mus musculus with 8 samples.

Results

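The genotype by injury interaction is the difference between 2 injury responses: the change after ischaemia-reperfusion injury (IRI) in Keap1 knockdown (KD) mouse kidneys minus the change after IRI in wild-type (WT) kidneys. It was taken from all 8 arrays, chosen by their titles, which is every array of the series. A probe entered when it was no control and was well above background on at least 1 array of each of the 4 groups, and 24744 of 41174 probes did. The brightest of these per gene gave 18592 of 32301 genes or array identifiers, called genes below, of which 13124 carried a RefSeq symbol. A positive interaction means that the injury response was more positive in KD than in WT, whether through a larger increase, a smaller decrease or a lower starting level.

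Each group held 2 arrays of left kidneys from male mice aged 16 weeks. Keap1 KD IRI kidneys had their renal vessels clamped for 45 minutes and were taken 1 day later, and Keap1 KD normal kidneys were not clamped. WT IRI and WT normal kidneys were handled in the same ways. In the IRI groups the right kidney was left unclamped. The labels call the genotype Keap1 knockdown, which lowers and does not delete the gene, and name no allele, no strain and no sham operation for the normal kidneys. They do not say that each array came from a separate animal, so p-values measure only the spread between these samples. The number of arrays, 2 a group, limits the precision of every value below.

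KEAP1 is the adaptor that marks the transcription factor NRF2 for degradation. When KEAP1 is scarce, NRF2 accumulates and switches on genes of glutathione synthesis, quinone reduction and NADPH supply. In the kidney, IRI strikes the proximal tubule hardest: these cells lose transporters and oxidative metabolism within a day, show stress and injury genes, and the survivors enter the cell cycle to replace those lost. In whole-kidney RNA, fewer cells of a type and less RNA per cell cannot be told apart.

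Levels are log2 of the scanner's processed signal over the 75th percentile of the same array, so that 0 is the level of that percentile. Keap1 itself (chromosome 9) was at 1.33 and 1.04 in KD IRI kidneys, 1.50 and 1.40 in KD normal kidneys, 2.66 and 2.50 in WT IRI kidneys and 2.75 and 2.66 in WT normal kidneys. The 4 KD arrays lay below the 4 WT arrays in both states. The knockdown did not itself differ detectably between states: the interaction of Keap1 was -0.14 ± 0.17 (SE, adjusted p = 0.653). Nfe2l2, which encodes NRF2, had an interaction of 0.01 ± 0.16 (adjusted p = 0.967). Between 62.1% and 67.8% of the non-control spots were well above background on each array, and none was saturated.

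In 1168 of 18592 genes (6.28%) the injury response differed between the genotypes at an adjusted p under 0.05 (limma, 2-sided, Benjamini-Hochberg over all genes tested). The response was more positive in KD in 666 genes (3.58%) and more negative in KD in 502 genes (2.7%). At an unadjusted p under 0.05 limma gave 4767 of 18592 genes, 2448 of them positive. The list counts at an unadjusted p below are to be read against that share. The difference was at least 1 on the log2 scale in 629 of the 1168, with a median size of 1.04, while the median interaction over all genes was -0.0013. Of the gene lists described below, cell cycle held the most positive calls (22), and fatty acid oxidation (9), cytochrome P450 (7) and amino acid metabolism (6) held the most negative ones by count. As a share of the genes tested these came to 61.1%, 22.0%, 22.6% and 13.6%, while the shorter lists of clock genes, proximal tubule markers and gluconeogenesis reached 18.8%, 18.5% and 16.7%.

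The calls rested on the whole set of arrays. Both slides gave the same sign for 1165 of the 1165 called genes that had a value on each, against 12925 of 18466 over all genes. Since both slides entered the fit, that agreement in sign is a description. The count at the threshold depended on single arrays: it was 152 without KD IRI replicate 1, 1 without KD IRI replicate 2, 355 without KD normal replicate 2, 3 without WT normal replicate 1 and 2 without WT normal replicate 2. Removing any 1 of the other 3 arrays left between 976 and 1518. Under every one of these removals at least 1166 of the 1168 genes kept their sign. The called genes were chosen on the full set of arrays, and each removal reuses all but 1 of them. A kept sign was thus largely fixed by that choice and is a description, not a test of the calls. WT normal replicates differed least, with a median difference of 0.0902 between them, against 0.122 in KD IRI, 0.159 in KD normal and 0.176 in WT IRI. Of the 87 called genes looked at singly, 0 kept an adjusted p under 0.05 in every limma fit without 1 array, and 0 changed sign. Another background correction, normexp, ended the call of 15 of the 87 and made the interaction of 14 smaller by over 1.5 times, with 5 genes in both sets; the values under normexp stand beside those genes. In at least 1 of the limma fits without 1 array, every list below lost all of its called interactions. List counts of genotype differences and list counts at an unadjusted p were not taken again in those fits.

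Injury changed 11079 genes in KD kidneys (59.6%) and 8693 in WT kidneys (46.8%). Genotype changed 1355 genes in IRI kidneys (7.29%) and 2877 in normal kidneys (15.5%). Among the 666 genes with a positive interaction, injury responses were above 0 in both genotypes for 468, below 0 in both for 42 and of opposite sign for 156. Among the 502 with a negative interaction, they were below 0 in both for 370, above 0 in both for 17 and opposite for 115. In most called genes the 2 injury responses thus had the same sign. No share over all genes was taken for these signs, and the genes were chosen on the difference of the responses. The counts are therefore a description. The plot of the 2 injury responses shows both groups as bands along the diagonal.

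**Figure D1:**
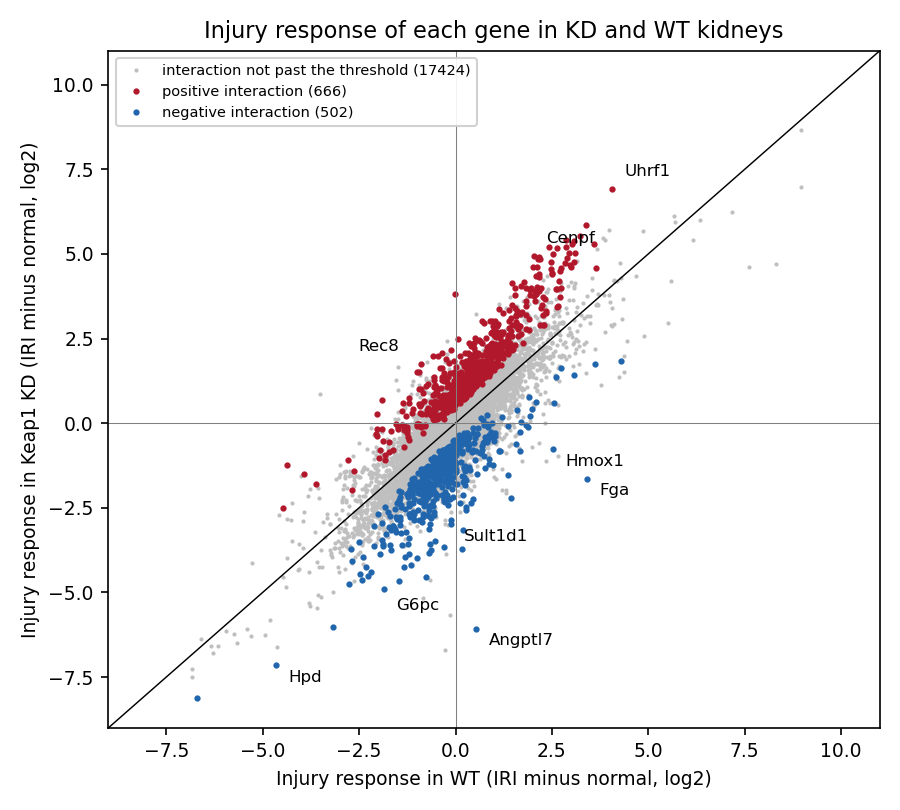
Injury response (IRI minus normal, log2) of each of 18592 genes in Keap1 KD kidneys (vertical axis) and WT kidneys (horizontal axis), each from 2 arrays a group. Red points are the 666 genes with a positive interaction past the threshold, blue points the 502 with a negative one and grey points the rest, and on the black diagonal both responses are equal. Cenpf and Uhrf1 lie above it, and Angptl7, Fga, Hmox1 and G6pc below it.

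Seen by genotype, the means of KD and WT changed order between the states in most called genes. The interaction is the genotype difference in IRI minus that in normal kidneys, so genes chosen for it tend to cross by construction. The counts of signs are therefore a description, and no share over all genes was taken. Of the 666 positive genes, 528 were below WT in KD normal kidneys and above WT in KD IRI kidneys. Of the 502 negative genes, 439 were above WT in KD normal kidneys and below WT in KD IRI kidneys. The genotype difference passed the threshold in IRI kidneys only for 153 positive and 166 negative genes, in normal kidneys only for 386 positive and 223 negative genes, and in both states for 59 and 51. A crossing that was called on both sides, with opposite signs, was found in 47 positive and 47 negative genes.

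The group that carries a difference was read from sizes alone. A group was named when it lay on the side of the larger genotype difference and of the larger injury response, and when the smaller of each pair was at most 0.5 of the larger. By this measure KD IRI carried 148 called genes (57 positive and 91 negative), KD normal 279 (179 and 100), WT IRI 5 (4 and 1) and WT normal 64 (43 and 21). The other 672 genes (57.5%) were shared, which means that no 1 group stood apart. As shares of called genes and of all genes, KD IRI carried 12.7% and 7.77%, KD normal 23.9% and 10.7%, WT IRI 0.43% and 2.09% and WT normal 5.48% and 7.40%, and 57.5% and 72.0% were shared. The share among called genes was thus above that among all genes for both KD groups and below it for both WT groups, which was not tested. Since a crossing puts a genotype difference on each side, crossed genes are mostly shared by construction.

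**Figure D2:**
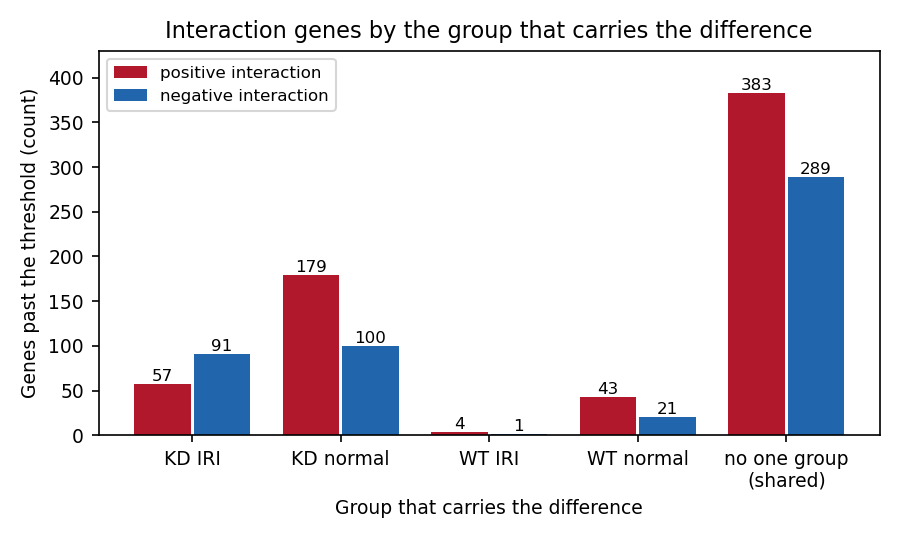
Number of genes past the interaction threshold (vertical axis) by the group that carries the difference (horizontal axis), red for positive and blue for negative interactions. Most genes fall in the shared class (383 positive, 289 negative), KD normal comes next with 179 and 100, and WT IRI carries 4 and 1.

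The cell cycle list had the largest share of called genes among the lists. DNA replication and mitosis genes are nearly silent in the resting kidney and are switched on when tubule cells divide after injury. Of 48 listed genes 36 could be tested, and 22 had a positive interaction past the threshold in limma (background 3.58% positive) and 0 a negative one. At an unadjusted p under 0.05 the counts were 32 positive and 0 negative. Of the 36, 35 had an interaction above 0, and the median was 1.62, against -0.0013 over all genes. The median injury response of the 36 was 3.52 in KD and 1.94 in WT. Their median genotype difference was 1.11 in IRI kidneys and -0.57 in normal kidneys. By the median KD thus lay lower without injury and higher after it, though most of the 36 were not called lower in normal kidneys. At the threshold 16 of the 36 were higher in KD in IRI kidneys (background 3.77%) and 5 were lower in KD in normal kidneys (background 8.85%). With normexp 16 of the 36 had a positive interaction past the threshold.

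Cenpf, a kinetochore protein of dividing cells, was at -0.40 and 0.35 in KD IRI kidneys, -4.78 and -5.16 in KD normal kidneys, -1.0 and -1.79 in WT IRI kidneys and -3.58 and -3.28 in WT normal kidneys. No 2 groups overlapped. The interaction was 2.92 ± 0.47 (SE, adjusted p = 0.0257), with an injury response of 4.95 in KD and 2.03 in WT. Cenpf was well above background on 1 of the 2 KD normal arrays, and its interaction was 1.58 with normexp. Slide 1 gave 1.81 and slide 2 gave 4.02. Uhrf1, which keeps DNA methylation in place at replication forks, was at 2.46 and 2.54 in KD IRI kidneys, -4.17 and -4.68 in KD normal kidneys, 1.35 and 0.43 in WT IRI kidneys and -3.19 and -3.13 in WT normal kidneys. Its interaction was 2.87 ± 0.42 (adjusted p = 0.0224). The same order of the groups held for Mki67, which encodes the proliferation marker Ki-67: 2.15 and 2.81 in KD IRI kidneys, -2.28 and -2.58 in KD normal kidneys, 1.61 and 0.58 in WT IRI kidneys and -1.23 and -0.93 in WT normal kidneys. The interaction of Mki67 was 2.74 ± 0.50 (adjusted p = 0.0322), and a further probe of the gene gave 2.96.

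Other dividing-cell genes took the same form. The mitotic kinase Pbk had an interaction of 2.78, the kinetochore subunit Nsl1 2.72, the G1/S factor Tcf19 2.66 and the replisome ubiquitin ligase Traip 2.62. Mns1, a filament protein of cilia and germ cells, had 2.70. In KD IRI kidneys Pbk was at 0.04 and 0.60, against -4.93 and -4.84 in KD normal kidneys, -0.74 and -1.62 in WT IRI kidneys and -3.86 and -3.35 in WT normal kidneys. With normexp the interactions were 1.75 for Pbk, 1.5 for Nsl1 (adjusted p = 0.0524), 1.56 for Mns1 and 1.59 for Traip, and both Mns1 and Traip were well above background on 1 of the 2 KD normal arrays. Cdk1, the kinase that drives entry into mitosis, had an interaction of 2.29 ± 0.45, and Foxm1, the transcription factor of the late cell cycle, one of 2.25 ± 0.49. With normexp these fell short of the threshold at 1.44 for Cdk1 (adjusted p = 0.0706) and 1.30 for Foxm1 (adjusted p = 0.0662). The helicase subunits Mcm3 and Mcm6 had 1.89 ± 0.30 and 1.29 ± 0.25. These last 4 genes were picked after their values were seen. Cdc20, which activates the complex that ends mitosis, had 2.22 ± 0.55 and missed the threshold (adjusted p = 0.0617).

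**Figure D3:**
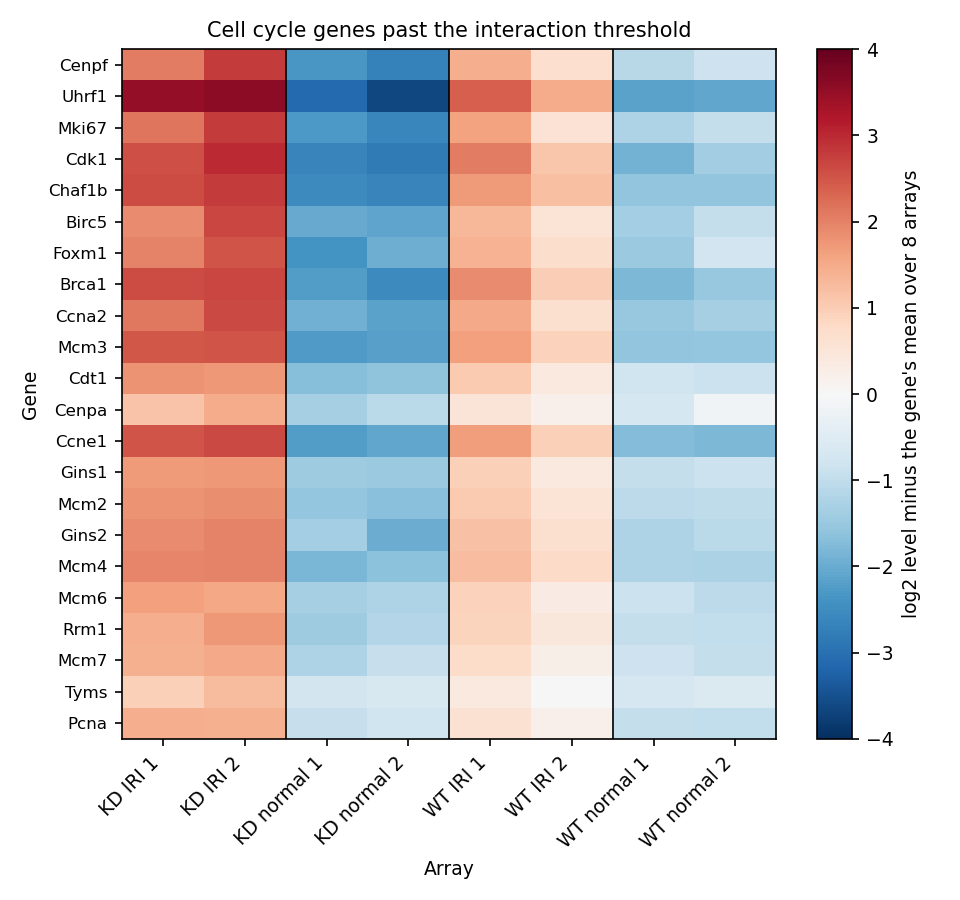
Levels of the 22 cell cycle genes past the interaction threshold (rows, ordered by interaction) on each of the 8 arrays (columns), as log2 level minus the mean of that gene over 8 arrays (colour). The mean of KD IRI is the highest of the 4 groups in 22 of the 22 genes, and that of KD normal the lowest in 21. Genes chosen for a positive interaction tend to take this order by construction, so the counts are a description.

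The arrays of a group did not contribute alike. The median interaction of the cell cycle list was 1.07 on slide 1 and 2.18 on slide 2, and on slide 2 the WT IRI array was the lower of its pair. The summed linear level of the 46 cell cycle genes with a probe was 210 and 229 in KD IRI kidneys, 26.8 and 28.3 in KD normal kidneys, 129 and 83.3 in WT IRI kidneys and 33.9 and 34.4 in WT normal kidneys. The number of cell cycle genes called ranged from 0 without KD IRI replicate 2, WT normal replicate 1 or WT normal replicate 2, through 1 without KD IRI replicate 1, 2 without KD normal replicate 2 and 9 without KD normal replicate 1, to 31 without WT IRI replicate 1. It was 17 without WT IRI replicate 2. The summed level of 20 monocyte and macrophage markers was 27.4 and 35.3 in KD IRI kidneys, 10.7 and 13.3 in KD normal kidneys, 26.5 and 40.6 in WT IRI kidneys and 12.1 and 11.8 in WT normal kidneys. The KD IRI pair lay within the range of the WT IRI pair. Their part in the cell cycle result was not tested.

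Promoters are shown for 4 of these genes because these genes moved together. Late cell cycle genes are known for the cell cycle genes homology region (CHR, TTTGAA) near CCAAT boxes, and replication genes for E2F sites (TTTGGCGC or TTTCCCGC). The windows run from 250 bases before to 50 bases after the start of the gene, in GRCm38.p6, from RefSeq, 5′ to 3′ on the strand of the gene. Capitals mark any match to these 4 motifs on either strand, and overlapping matches merge. Cenpf lies at chr1:189688037-189688336 (minus strand), Mki67 at chr7:135716330-135716629 (minus strand), Mcm3 at chr1:20820263-20820562 (minus strand) and Mcm6 at chr1:128359656-128359955 (minus strand).
Cenpf: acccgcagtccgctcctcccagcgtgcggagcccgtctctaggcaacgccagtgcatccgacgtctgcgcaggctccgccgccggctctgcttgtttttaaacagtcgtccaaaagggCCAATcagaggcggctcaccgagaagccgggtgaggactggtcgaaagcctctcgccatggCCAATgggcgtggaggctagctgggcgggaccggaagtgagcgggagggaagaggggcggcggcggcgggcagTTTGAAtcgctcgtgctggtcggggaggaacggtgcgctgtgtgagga
Mki67: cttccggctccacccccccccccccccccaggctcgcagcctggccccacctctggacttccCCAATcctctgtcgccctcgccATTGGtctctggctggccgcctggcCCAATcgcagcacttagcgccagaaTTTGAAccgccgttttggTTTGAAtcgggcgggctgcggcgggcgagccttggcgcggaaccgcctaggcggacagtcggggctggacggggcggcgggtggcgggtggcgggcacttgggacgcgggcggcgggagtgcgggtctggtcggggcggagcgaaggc
Mcm3: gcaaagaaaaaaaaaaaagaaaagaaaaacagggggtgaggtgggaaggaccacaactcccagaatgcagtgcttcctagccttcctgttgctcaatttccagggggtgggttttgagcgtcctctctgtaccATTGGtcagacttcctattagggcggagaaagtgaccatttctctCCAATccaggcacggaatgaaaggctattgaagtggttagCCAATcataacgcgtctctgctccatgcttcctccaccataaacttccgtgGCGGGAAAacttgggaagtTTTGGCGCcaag
Mcm6: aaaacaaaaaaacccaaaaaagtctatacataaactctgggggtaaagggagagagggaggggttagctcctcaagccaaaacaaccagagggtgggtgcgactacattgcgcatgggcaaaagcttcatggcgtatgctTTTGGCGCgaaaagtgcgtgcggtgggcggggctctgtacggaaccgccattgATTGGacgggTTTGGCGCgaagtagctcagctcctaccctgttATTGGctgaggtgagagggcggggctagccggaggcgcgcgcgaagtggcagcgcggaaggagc

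The mitotic pair held the CHR letters, 1 match in Cenpf and 2 in Mki67, and no E2F letters. The helicase pair held no CHR letters and 2 E2F matches each. CCAAT was found 2 times in Cenpf, 3 times in Mki67, 3 times in Mcm3 and 2 times in Mcm6. Of the 22 called cell cycle genes 17 matched the RefSeq table, with 19 windows. Among those windows 26.3% held a CHR, 73.7% a CCAAT box and 21.1% an E2F motif of either form, against 35.5%, 77.4% and 16.1% of the 31 windows of all cell cycle genes tested. The called genes thus held no more CHR or CCAAT letters than the list they came from. Of the 13415 windows of all genes tested the shares were 12.1%, 37% and 2.58%, and of all 32851 windows 17.9%, 37.4% and 1.56%. Over all called positive genes with a window the E2F share was 6.41%, and over called negative genes 0.503%. The core of the antioxidant response element bound by NRF2, TGACNNNGC, was in 13% of windows of called positive genes, 14.3% of those of called negative genes, 14.1% of those of genes tested and 12.4% of all windows. A match to letters is no proof of a site, and distant enhancers lie outside these windows.

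Where genes of proximal tubule metabolism had an interaction past the threshold, it was negative, but most genes of these lists did not pass. These cells burn fatty acids in mitochondria and peroxisomes, make glucose, break down amino acids and reclaim solutes from the filtrate. All 41 listed fatty acid oxidation genes were tested, and 9 had a negative interaction past the threshold and 0 a positive one (background 2.7% negative). The median was -0.42 and 38 of 41 lay below 0. The cytochrome P450 list had 7 negative of 31 tested (median -0.64), amino acid metabolism 6 of 44 (median -0.59), the proximal tubule markers 5 of 27 (median -0.54) and gluconeogenesis and fructose use 2 of 12 (median -0.69), each with 0 positive in limma. At an unadjusted p under 0.05 the counts, negative and positive, were 19 and 0 for fatty acids, 13 and 1 for P450, 22 and 1 for amino acids, 10 and 0 for the tubule markers and 8 and 0 for gluconeogenesis. Of the 34 genes of the TCA cycle and oxidative phosphorylation limma called 0, with 9 at an unadjusted p under 0.05 and a median of -0.17. The lists share members: Cyp4a12a is a fatty acid and a P450 gene, Cyp2e1 a P450 gene and a tubule marker.

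The median injury responses of these lists were below 0 in both genotypes and lower in KD, though Psat1 and Slc13a1, given below, departed from this. The median injury response of the fatty acid genes was -1.46 in KD and -0.97 in WT, and that of the P450 genes was -2.26 in KD and -1.48 in WT. The median genotype difference of the fatty acid genes was -0.53 in IRI kidneys and -0.13 in normal kidneys, and 20 of 41 were lower in KD in IRI kidneys at the threshold (background 3.52%). For amino acid metabolism those medians were -0.35 in IRI and 0.18 in normal kidneys. The summed level of 27 proximal tubule markers was 628 and 488 in KD IRI kidneys, 2263 and 2087 in KD normal kidneys, 857 and 608 in WT IRI kidneys and 2038 and 2007 in WT normal kidneys. KD IRI replicate 1 thus lay inside the range of the WT IRI pair. The part of tubule cell number in the metabolic genes was not tested.

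Ehhadh, the bifunctional enzyme of peroxisomal fatty acid oxidation, was at 1.91 and 1.50 in KD IRI kidneys, 5.31 and 5.24 in KD normal kidneys, 3.27 and 4.29 in WT IRI kidneys and 4.98 and 5.03 in WT normal kidneys. KD IRI was the lowest group by a wide margin, while KD normal and WT normal lay close together. The interaction was -2.34 ± 0.43 (SE, adjusted p = 0.032), and KD IRI carried it. KD IRI also carried Pex11a, which makes peroxisomes multiply (-1.16 ± 0.20), and Acot12, a cytosolic acetyl-CoA thioesterase (-1.83 ± 0.20). Pex11a and Acot12 were chosen after their values were seen. Ppara, the nuclear receptor that drives such genes, had -1.49 ± 0.38 and missed the threshold (adjusted p = 0.069).

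Cyp4a12a, a male-specific kidney enzyme that hydroxylates fatty acids, was at 1.25 and 0.60 in KD IRI kidneys, 5.44 and 5.77 in KD normal kidneys, 2.46 and 1.77 in WT IRI kidneys and 3.58 and 3.61 in WT normal kidneys. Here both states contributed: KD was above WT in normal kidneys by 2.01 and below it in IRI kidneys by a difference of -1.19. The interaction was -3.20 ± 0.39 (adjusted p = 0.0188). G6pc, the last enzyme of glucose release, crossed in the same way, with 1.19 and 0.80 in KD IRI kidneys, 5.29 and 6.49 in KD normal kidneys, 3.11 and 2.70 in WT IRI kidneys and 4.88 and 4.64 in WT normal kidneys. Its interaction was -3.03 ± 0.52 (adjusted p = 0.0285), and that of Slc37a4, which brings glucose-6-phosphate to the same enzyme, was -1.58 ± 0.17 (adjusted p = 0.0146).

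Amino acid breakdown was led by Hpd, an enzyme of tyrosine breakdown, at -4.56 and -5.61 in KD IRI kidneys, 1.81 and 2.33 in KD normal kidneys, -3.68 and -3.14 in WT IRI kidneys and 1.41 and 1.08 in WT normal kidneys. All 4 IRI arrays lay far below all 4 normal ones, and the decrease was larger in KD. The interaction was -2.50 ± 0.52 (adjusted p = 0.0421, and 0.0523 with the slide as a replicate block). Hpd was well above background on 1 of the 2 KD IRI arrays, and its interaction was -1.32 with normexp, under which 3 of the 44 amino acid genes passed. Gldc, of glycine breakdown, had -2.07 ± 0.25. Psat1, of serine synthesis, differed in form: its injury response was 0.23 in KD and 1.92 in WT, for an interaction of -1.70 ± 0.38 (adjusted p = 0.0477). Acnat2, which joins fatty acids to amino acids, had -3.34 ± 0.33, with an injury response of -3.16 in KD and 0.18 in WT, and the sulphotransferase Sult1d1 -2.88 ± 0.28 (both adjusted p = 0.0138). Sult1d1 was at 3.16 and 2.63 in KD IRI kidneys, 5.78 and 5.99 in KD normal kidneys, 4.65 and 5.03 in WT IRI kidneys and 5.01 and 4.88 in WT normal kidneys, so its decrease was seen in KD while the WT groups overlapped.

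**Figure D4:**
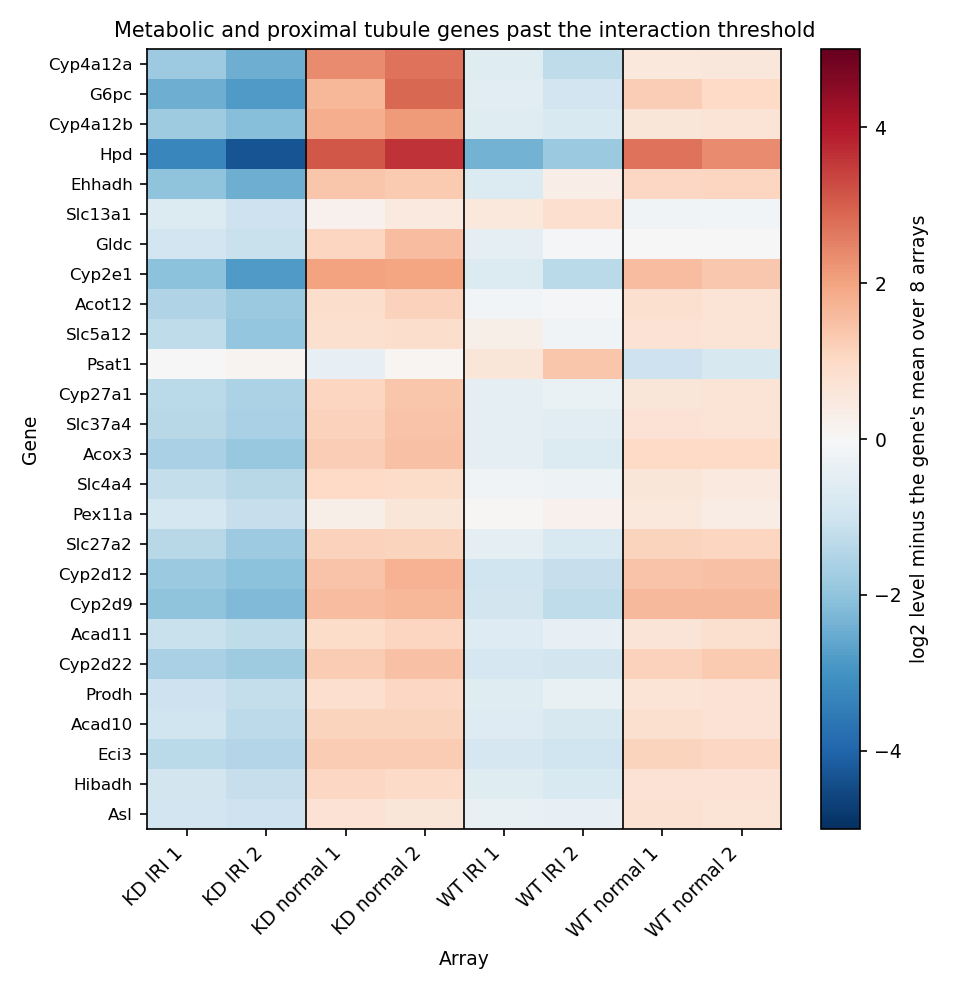
Levels of 26 metabolic and proximal tubule genes past the interaction threshold (rows, most negative interaction at the top) on each of the 8 arrays (columns), as log2 level minus the mean of that gene over 8 arrays (colour). The mean of KD IRI is the lowest of the 4 groups in 25 of the 26 genes, and that of KD normal the highest in 22, while Slc13a1 and Psat1 are highest in WT IRI. Genes chosen for a negative interaction tend to take this order by construction, so the counts are a description.

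Among tubule transporters the sulphate carrier Slc13a1 turned opposite ways. It was at 2.65 and 2.29 in KD IRI kidneys, 3.56 and 3.82 in KD normal kidneys, 3.87 and 4.19 in WT IRI kidneys and 3.15 and 3.18 in WT normal kidneys. The injury response was -1.22 in KD and 0.86 in WT, and the interaction was -2.08 ± 0.23 (adjusted p = 0.0146). The lactate carrier Slc5a12 (-1.78), the bicarbonate carrier Slc4a4 (-1.46), the fatty acid carrier Slc27a2 (-1.03) and Cyp2e1 (-1.97) complete the 5 tubule markers called, and KD IRI carried Slc5a12 and Slc4a4. The phosphate carrier Slc34a1 had an interaction of -0.49 ± 0.37 (adjusted p = 0.448). Of 13 loop and distal tubule markers limma called 0 (3 at an unadjusted p under 0.05, median -0.02). Of 15 collecting duct markers it called 1 (6.67%, close to the background of 6.28%, with 5 at an unadjusted p under 0.05), the sodium channel subunit Scnn1g (-0.50, and -0.38 with normexp, adjusted p = 0.0835).

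Many NRF2 target genes were higher in KD in both states, and the interactions called among them went both ways. In the glutathione list 14 of 31 genes were higher in KD in IRI kidneys (background 3.77%), 15 in normal kidneys (background 6.63%) and 13 in both (background 1.03%). Of the 31, 3 had a positive and 3 a negative interaction, or 19.4% against 6.28% over all genes. In the redox and detoxification list 18 of 44 were higher in KD in IRI kidneys, 19 in normal kidneys and 12 in both. Again 3 interactions were positive and 3 negative (13.6%), while 9 were positive and 15 negative at an unadjusted p under 0.05. The positive count of this list was 6 with quantile normalization and 5 with normexp, and the negative count 5 with the replicate block. The median interactions were -0.03 and -0.02. NADPH supply had 1 positive and 1 negative of 16 (12.5%), and of the 16 regulators and partners of NRF2 limma called 0 (3 at an unadjusted p under 0.05), with Maff the largest at -1.91 ± 0.46 (adjusted p = 0.0573, and 0.0378 with the replicate block).

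Hmox1, which breaks down haem, had the strongest call among these genes. It was at 4.91 and 5.15 in KD IRI kidneys, 6.03 and 5.55 in KD normal kidneys, 4.17 and 4.04 in WT IRI kidneys and 1.57 and 1.60 in WT normal kidneys. WT normal lay far below the other 3 groups and carried the difference. The injury response was -0.76 in KD and 2.52 in WT, and the interaction was -3.28 ± 0.23 (SE, adjusted p = 0.00797). Gclc, the catalytic subunit of the first step of glutathione synthesis, was at 5.26 and 5.05 in KD IRI kidneys, 5.80 and 5.69 in KD normal kidneys, 4.14 and 4.30 in WT IRI kidneys and 3.67 and 3.79 in WT normal kidneys. All 4 KD arrays were above all 4 WT arrays, and the gap was 0.93 in IRI and 2.02 in normal kidneys, for an interaction of -1.08 ± 0.14 (adjusted p = 0.0195).

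In other genes of these lists the KD minus WT difference was larger after injury. Gpx2, a glutathione peroxidase of epithelia, was at 0.32 and 0.78 in KD IRI kidneys, -2.14 and -1.48 in KD normal kidneys, -3.46 and -3.09 in WT IRI kidneys and -3.68 and -3.80 in WT normal kidneys. The KD minus WT difference was 3.82 in IRI and 1.93 in normal kidneys, and the interaction was 1.89 ± 0.36 (adjusted p = 0.0346). Gsta4, a glutathione transferase for lipid aldehydes, had a difference of 2.41 in IRI and 1.29 in normal kidneys (interaction 1.12 ± 0.14). Ptgr1, which reduces prostaglandins and aldehydes, was at 3.46 and 3.28 in KD IRI kidneys, 2.36 and 1.95 in KD normal kidneys, 1.98 and 1.86 in WT IRI kidneys and 1.97 and 1.79 in WT normal kidneys. KD IRI alone stood apart, with an interaction of 1.18 ± 0.21 (adjusted p = 0.0305). The efflux pump Abcc1 (0.93), the reductase Akr1c12 (1.10), the transferase Gstm2 (0.64) and Taldo1 of the pentose phosphate pathway (0.48) were also positive.

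The remaining negative calls in these lists were the peroxidases Gpx1 (-0.55) and Gpx3 (-0.42, and -0.78 with quantile normalization), Aldh1a7 (-1.95), Ugt2b38 (-1.75) and Idh1 (-0.98), a source of cytosolic NADPH. Ugt2b38 belongs to a family of near-identical genes, and its probe may read its relatives too. Nqo1, the classical NRF2 target that reduces quinones, was at 4.15 and 3.89 in KD IRI kidneys, 3.31 and 3.30 in KD normal kidneys, 1.87 and 2.08 in WT IRI kidneys and 1.90 and 2.03 in WT normal kidneys. Its interaction of 0.71 ± 0.16 fell just short (adjusted p = 0.0529). Txnrd1, which reduces thioredoxin, had 0.41 ± 0.12 (adjusted p = 0.0853). Gclm, the modifier subunit beside Gclc, had 0.05 ± 0.18 (adjusted p = 0.899), while its KD minus WT difference was 0.68 in IRI and 0.63 in normal kidneys.

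**Figure D5:**
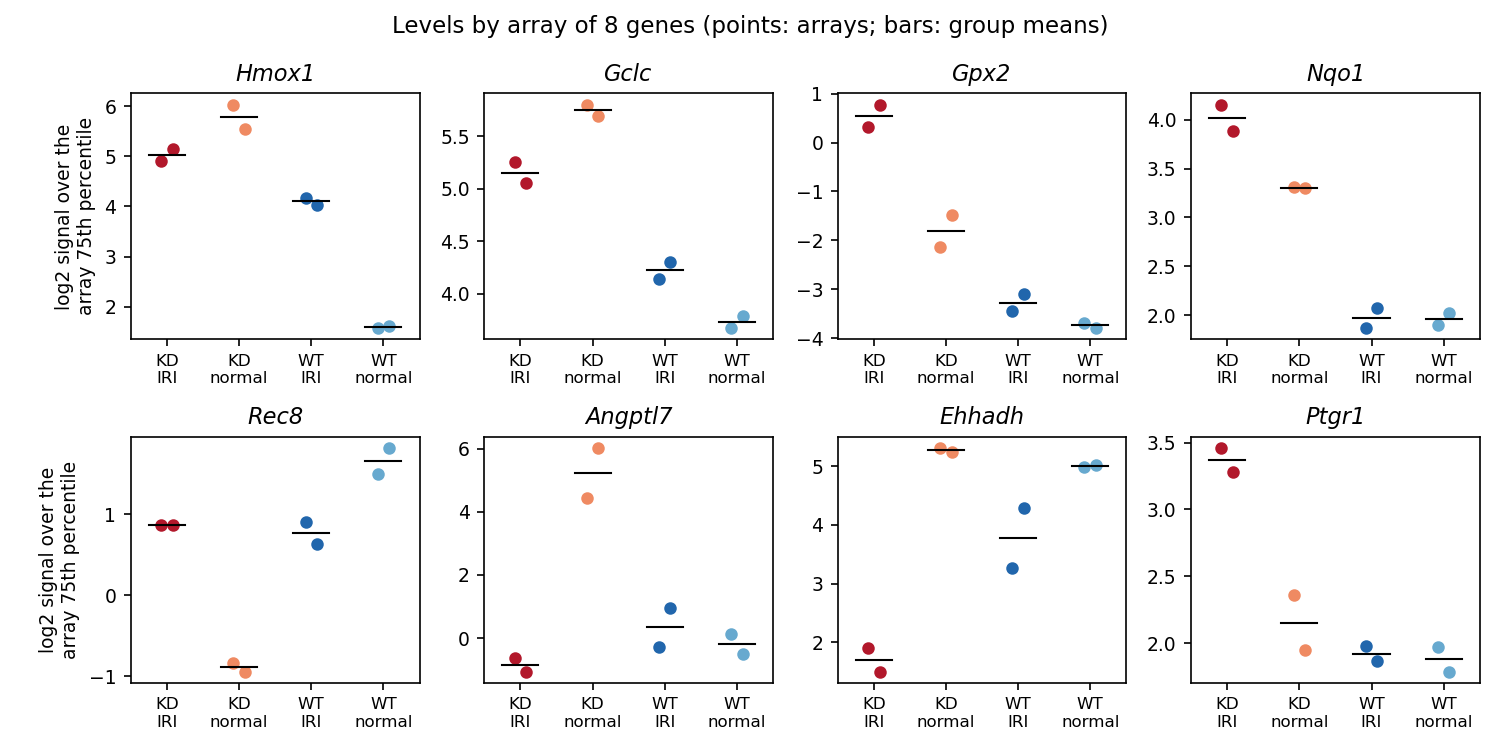
Levels (vertical axes, as log2 of signal relative to the 75th percentile of the array, each panel with its own range) of 8 genes by group (horizontal axes), with 1 point per array and a bar at the mean of the 2 arrays. Hmox1 is lowest in WT normal, Angptl7 highest in KD normal, Ehhadh lowest in KD IRI and Ptgr1 highest in KD IRI, while Gpx2 and Nqo1 are higher in both KD groups.

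Many stress genes were already higher in KD than in WT without injury. The interactions called in the heat shock, unfolded protein and immediate-early lists were negative, while those of the tubule injury list went both ways. Of 22 heat shock genes, 13 were higher in KD in normal kidneys (background 6.63%) and 3 had a negative interaction (background 2.7%). The median interaction was -0.52, with -0.76 on slide 1 and -0.16 on slide 2. The summed level of the 22 was 523 and 535 in KD IRI kidneys, 957 and 639 in KD normal kidneys, 464 and 436 in WT IRI kidneys and 460 and 450 in WT normal kidneys. KD normal replicate 1 thus stood above all other arrays, and 2 genes passed without it and 6 without KD normal replicate 2. Hspa1b, an inducible HSP70 gene, was at 4.94 and 1.43 in the KD normal arrays and had an interaction of -2.24 ± 1.36 (adjusted p = 0.35). Of 31 genes of the unfolded protein and ATF4 response, 12 were higher in KD in normal kidneys (background 6.63%). Of the 31, 3 had a negative interaction (background 2.7%) and 30 lay below 0 (median -0.42). Of 22 immediate-early genes, 11 were higher in KD in normal kidneys (background 6.63%) and 1 had a negative interaction (median -0.52). That 1 call is 4.55% of the list, below the 6.28% called over all genes. The summed level of the immediate-early list was lower in KD normal kidneys (369.5 and 256.7) than in WT normal kidneys (433.4 and 504.9). That of the ATF4 list was higher in KD normal (443.2 and 482.5) than in WT normal kidneys (276.4 and 266.5). With the slide as a replicate block the count of negative interactions was 6 for the ATF4 list and 5 for the immediate-early list. With normexp it was 2 and 0. The tubule injury list had 2 positive and 2 negative calls of 35 (11.4%, against 6.28% over all genes). In normal kidneys 13 of the 35 were higher in KD (background 6.63%). The injury molecule Havcr1 had an injury response of 8.66 in KD and 8.96 in WT (interaction -0.30 ± 0.52, adjusted p = 0.766), and Lcn2, a secreted injury marker, one of 6.23 in KD and 7.18 in WT (interaction -0.95 ± 0.73, adjusted p = 0.464).

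Hspb1, a small heat shock protein, was at 4.48 and 4.78 in KD IRI kidneys, 3.34 and 2.45 in KD normal kidneys, 4.21 and 4.42 in WT IRI kidneys and 0.69 and 0.69 in WT normal kidneys. The IRI groups lay close together, WT normal stood apart below and carried the difference. The interaction was -1.88 ± 0.38 (adjusted p = 0.0386). The chaperones Hspa4l (-1.29) and Hsp90aa1 (-0.74), and Herpud1 (-1.50) and Creld2 (-0.93) of the endoplasmic reticulum, were also negative. With normexp Creld2 had -0.71 (adjusted p = 0.131). Egr2, an immediate-early transcription factor, was at 0.36 and 0.68 in KD IRI kidneys, -1.41 and -1.22 in KD normal kidneys, -0.61 and 0.26 in WT IRI kidneys and -4.51 and -4.42 in WT normal kidneys, with an interaction of -2.45 ± 0.38 (adjusted p = 0.0237). WT normal again carried it, but with normexp it was -1.19 and not called (adjusted p = 0.0896).

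The same form was seen in Krt19, a keratin of injured tubules (-1.96, and -1.60 with normexp, adjusted p = 0.0615), and in Gdf15, a secreted stress signal (-1.14). Gdf15 was at 3.62 and 3.47 in KD IRI kidneys, 2.90 and 2.67 in KD normal kidneys, 2.41 and 2.75 in WT IRI kidneys and 0.62 and 0.73 in WT normal kidneys. Tnfrsf12a, the receptor for TWEAK, had -1.26 and Thbd, the thrombin receptor thrombomodulin, -1.64. Cdkn1a, the cell cycle inhibitor p21, was at 1.18 and 1.42 in KD IRI kidneys, -0.51 and 0.84 in KD normal kidneys, 0.60 and 1.41 in WT IRI kidneys and -3.03 and -2.50 in WT normal kidneys, with an interaction of -2.63 ± 0.65 (adjusted p = 0.0618, and 0.0256 with the replicate block). Positive calls among the 23 p53 targets were the kinase Plk2 (1.56, and 1.23 with normexp, adjusted p = 0.0652) and Ei24 (0.42). In either direction 13.0% of that list was called, against 6.28% over all genes.

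Clock genes had 3 negative calls of 16 (background 2.7% negative) and 0 positive ones, while 7 of the 16 lay above 0 (median -0.23). Nfil3, a repressor of the clock output, was at 0.01 and -0.01 in KD IRI kidneys, 1.25 and 1.84 in KD normal kidneys, 0.14 and 0.65 in WT IRI kidneys and -1.15 and -0.78 in WT normal kidneys. It was higher in KD by 2.51 in normal kidneys and differed by -0.40 in IRI kidneys, for an interaction of -2.91 ± 0.34 (adjusted p = 0.018). The core clock factor Arntl had -1.97 and the deubiquitinase Usp2 -1.34. Dbp, of the same list, went the other way at 2.04 ± 0.68 and was not called (adjusted p = 0.125). The KD normal replicates of Dbp lay apart, at 4.17 and 2.48. The labels give no hour of collection, and its part in these genes was not tested. Of 34 hypoxia and glycolysis genes limma called 1 positive and 1 negative (5.88%, near the 6.28% over all genes). These were Pdk1, which holds back pyruvate oxidation (0.82), and Ndrg1, a hypoxia target (-1.32).

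The immune lists were called at about the background share of 6.28% or below it. Of 32 inflammation genes tested out of 50 listed, limma called 2 positive (6.25%), the alarmin Il33 (1.22) and the adhesion molecule Vcam1 (0.95, with a further probe at 1.27 that was not called). Of 28 interferon genes it called Irf1, a transcription factor of that response (0.84, with a further probe at 0.53 that was not called). Of 16 monocyte and macrophage markers it called Mertk, a receptor for dying cells (-0.80, 6.25% of the list), and of 3 neutrophil, 8 lymphocyte, 14 endothelial and 11 podocyte markers tested it called 0. At an unadjusted p under 0.05 limma gave 2 of 3 neutrophil, 2 of 8 lymphocyte, 3 of 14 endothelial and 5 of 11 podocyte markers. Over all genes it gave 4767 of 18592. Of 16 neutrophil markers with a probe, 13 were not well above background in every group and could not be tested. All 8 lymphocyte markers had an interaction above 0, with a median of 1.00, while their summed level over 13 markers was 0.67 and 0.77 in KD IRI kidneys, 0.74 and 0.50 in KD normal kidneys, 0.80 and 0.58 in WT IRI kidneys and 1.15 and 1.13 in WT normal kidneys. The summed level of 16 neutrophil markers was 54.3 and 60.7 in KD IRI kidneys, 0.88 and 6.43 in KD normal kidneys, 50.3 and 109 in WT IRI kidneys and 0.44 and 0.51 in WT normal kidneys. Both KD normal replicate 2 and WT IRI replicate 2 were the higher of their pair. S100a9, a neutrophil protein, was at -0.67 and 2.42 in the KD normal arrays and had an interaction of -3.60 ± 1.24 (adjusted p = 0.132), and Chil3, a macrophage protein, one of -3.00 ± 0.79 (adjusted p = 0.0732).

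Of 19 matrix and stroma genes limma called 3 (15.8%), 2 positive and 1 negative, and 7 had an unadjusted p under 0.05. Col1a1, a chain of fibrillar collagen, was at 4.87 and 5.20 in KD IRI kidneys, -0.08 and -0.43 in KD normal kidneys, 4.07 and 4.14 in WT IRI kidneys and 0.55 and 0.47 in WT normal kidneys. KD lay above WT after injury and below it before. The interaction was 1.70 ± 0.21 (adjusted p = 0.0188), a further probe gave 1.78, and the partner chain Col1a2 had 0.61. Acta2, the actin of smooth muscle and myofibroblasts, had -1.10, with further probes between -0.92 and -0.35 and a value of -0.96 with normexp (adjusted p = 0.0751). The summed level of 4 blood markers was 22.0 and 30.8 in KD IRI kidneys, 105 and 83.4 in KD normal kidneys, 19.0 and 40.6 in WT IRI kidneys and 69.6 and 220 in WT normal kidneys. The part of blood in the results was not tested. Of 28 cell death genes limma called 3 positive and 3 negative (21.4%, against 6.28% over all genes). Pycard, the inflammasome adaptor, was at 2.58 and 2.66 in KD IRI kidneys, 0.45 and 0.24 in KD normal kidneys, 2.51 and 2.52 in WT IRI kidneys and 1.69 and 1.59 in WT normal kidneys. KD normal carried its interaction of 1.40 ± 0.13 (adjusted p = 0.0138). Nlrp3, the sensor of the same complex, had -2.23 (-1.09 with normexp) and the inflammatory caspase Casp4 -1.98 (-1.76 with normexp, adjusted p = 0.0637). Alox12 had 1.04, with a further probe at 0.91 that was not called. The apoptosis effector Bak1 had 0.69 (adjusted p = 0.0662 with normexp), although a further probe of Bak1 gave -0.14.

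Of 23 complement and coagulation genes, limma called 1 positive and 3 negative (17.4%, against 6.28% over all genes). These were Plau, the urokinase (1.51), Thbd, Cd55, which restrains complement (-0.95, and -0.69 with normexp, adjusted p = 0.0593), and Fga. Fga, the fibrinogen alpha chain, was at -1.93 and -1.71 in KD IRI kidneys, -0.57 and 0.21 in KD normal kidneys, -0.19 and 2.54 in WT IRI kidneys and -2.32 and -2.16 in WT normal kidneys. Its injury response in limma was 3.42 in WT (adjusted p = 0.0105) and -1.64 in KD, the latter not called (adjusted p = 0.105). The interaction was -5.06 ± 1.09 (adjusted p = 0.045, and 0.0598 with normexp). Neither genotype difference was called (adjusted p = 0.0632 in IRI and 0.114 in normal kidneys). The WT IRI replicates lay far apart, and the interaction was -3.69 without WT IRI replicate 2 and -6.42 without WT IRI replicate 1. Fgb, the fibrinogen beta chain, had a positive injury response in both genotypes, 2.95 in KD and 5.50 in WT. Its interaction of -2.55 ± 1.10 was not called (adjusted p = 0.202).

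The largest interaction among called genes with a symbol was that of Angptl7, a secreted angiopoietin-like protein. It was at -0.63 and -1.06 in KD IRI kidneys, 4.44 and 6.02 in KD normal kidneys, -0.27 and 0.95 in WT IRI kidneys and 0.12 and -0.50 in WT normal kidneys. KD normal stood far above the other groups, and the interaction was -6.60 ± 0.81 (adjusted p = 0.0191), with -4.68 on slide 1 and -8.53 on slide 2. Zfp982, a zinc finger gene, had -2.77, but a further probe gave 0.27. Polr3e, a subunit of RNA polymerase III, had -3.79 (a further probe -2.41), and Rbp7, a retinol-binding protein, -3.65 (-2.40 with normexp).

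Rec8, a cohesin subunit known from meiosis, had the smallest adjusted p of the genes named for a positive interaction. It was at 0.87 and 0.87 in KD IRI kidneys, -0.83 and -0.94 in KD normal kidneys, 0.90 and 0.63 in WT IRI kidneys and 1.50 and 1.82 in WT normal kidneys. The genotypes differed by -2.55 in normal kidneys and by 0.10 in IRI kidneys, so the genotypes lay apart without injury and together after it. The interaction was 2.65 ± 0.19 (adjusted p = 0.00797), and a further probe gave 1.55. Cd83, an immune regulator, was carried by WT normal, at -1.82 and -1.84 in KD IRI kidneys, -2.60 and -2.41 in KD normal kidneys, -1.89 and -3.05 in WT IRI kidneys and -0.64 and -0.49 in WT normal kidneys (2.58 ± 0.47). Enox1, an oxidase, was carried by WT normal as well, in the other direction (-2.50 ± 0.44, and -1.32 with normexp).

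KD IRI carried Jchain, which joins antibody subunits, at -5.67 and -5.45 in KD IRI kidneys, -1.94 and -0.66 in KD normal kidneys, -3.00 and -3.07 in WT IRI kidneys and -1.38 and -2.04 in WT normal kidneys. Its interaction was -2.94 ± 0.58 (adjusted p = 0.037). Jchain was well above background on 1 of the 2 KD IRI arrays, and with normexp the interaction was -1.28 and not called (adjusted p = 0.134). WT IRI carried only 5 genes: Nsg2 (1.42, and 0.85 with normexp), the carbonyl reductase Cbr2 (0.92), the ribosome assembly factor Mdn1 (0.74, adjusted p = 0.0558 with normexp, with a further probe at 0.12), Ei24 and Foxred2, an oxidoreductase of the endoplasmic reticulum (-0.73), the last chosen after its value was seen. Cbr2 was at 0.49 and 0.63 in KD IRI kidneys, 0.48 and 0.68 in KD normal kidneys, -0.04 and -0.26 in WT IRI kidneys and 0.77 and 0.81 in WT normal kidneys. The 2 KD groups overlapped fully, and WT IRI lay below the rest (0.92 ± 0.16, adjusted p = 0.0293). Called genes were spread over the genome, with between 5.3% and 8.52% of the tested genes with a symbol on each chromosome that held over 100 of them.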

How the data were processed

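Total RNA (300 ng) of 8 kidneys was labelled with Cy3 and hybridised to single-colour arrays, per the labels' protocols. Per the file headers, the deposited spot files give linear fluorescence intensity, processed by Agilent Feature Extraction 10.7.3.1 with background subtraction. Each array holds 45018 spots, 43379 of them non-control. The deposited series table holds log2 values. Set against the scanner values, its columns followed log2 intensity over the array's 75th percentile, centred per gene (r between 0.998 and 1.000 per array), which settles scale and direction. Its column medians run between -0.136 and 0.158, and how the authors scaled it is not given in the sources used here.

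The values fitted were log2 of the processed intensity minus that of the array's 75th percentile, which lay between 1040 and 1340. Spots of a probe were averaged, and control and outlier spots left out. RefSeq accessions (GRCm38.p6) named 26690 probes with 18217 symbols; other probes keep the array's identifier and count as genes of their own. Where a gene had over 1 kept probe (4789 genes), the brightest over the 8 arrays was used and further probes are cited where their call or sign differed. limma 3.58.1 (R 4.3.3) fitted the 4 group means, with an intensity trend in empirical Bayes, 4 residual degrees of freedom and 2.95 prior ones (median). The 5 contrasts were tested 2-sided with Benjamini-Hochberg adjustment over 18592 genes, at 0.05. The script was tested on simulated data. Promoter windows are RefSeq's.

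The comparison, the gene lists and the tests were chosen with earlier results of these data known. Genes were named by a rule: the pathway genes Keap1, Nfe2l2, Gclc, Gclm, Nqo1, Txnrd1 and Hmox1, the kidney genes Slc34a1, Lcn2 and Havcr1, the 10 most positive and 10 most negative interactions with a gene symbol, the 3 largest of each carrying group, and from each list the most positive and most negative call and the largest interaction not called. Any other gene was chosen after its values were seen. Some genes are not reported here by name, though they count in all totals. Per the file headers, slide 1 holds replicate 1 of all 4 groups and slide 2 replicate 2, so the slide block and the replicate block are the same fit. Differences between replicates correlated between groups with r from -0.00581 to 0.283 over 18466 genes. Alternatives were quantile normalization, normexp (offset 50) on the median spot signal, since the files hold no mean, the deposited log2 table, other filters on dim probes, no intensity trend, array weights, the block, the mean of probes, single probes, and leaving out each array.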

Additional observations from a re-analysis of the deposited data

Results flagged for a closer look

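The injury responses of the genotypes differed, by a limma test of the difference itself, in 1168 genes. The genes of that set that were looked at singly are given with their interaction on the log2 scale (KD response minus WT response), each called with all 8 arrays and 0 of them in every limma fit without 1 array.

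The most positive were Cenpf (2.92), Uhrf1 (2.87), Pbk (2.78), Mki67 (2.74), Nsl1 (2.72), Mns1 (2.70), Tcf19 (2.66), Rec8 (2.65) and Traip (2.62). Next came Cd83 (2.58), Cdk1 (2.29), Foxm1 (2.25), Gpx2 (1.89), Mcm3 (1.89), Col1a1 (1.70), Plk2 (1.56), Plau (1.51) and Nsg2 (1.42). A smaller positive interaction was found for Pycard (1.40), Mcm6 (1.29), Il33 (1.22), Ptgr1 (1.18), Gsta4 (1.12), Akr1c12 (1.10), Alox12 (1.04) and Vcam1 (0.95). The smallest positive ones belonged to Abcc1 (0.93), Cbr2 (0.92), Irf1 (0.84), Pdk1 (0.82), Mdn1 (0.74), Bak1 (0.69), Gstm2 (0.64), Col1a2 (0.61), Taldo1 (0.48) and Ei24 (0.42).

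The most negative were Angptl7 (-6.60), Fga (-5.06), Polr3e (-3.79), Rbp7 (-3.65), Acnat2 (-3.34), Hmox1 (-3.28), Cyp4a12a (-3.20), G6pc (-3.03) and Jchain (-2.94). After these stood Nfil3 (-2.91), Sult1d1 (-2.88), Zfp982 (-2.77), Hpd (-2.50), Enox1 (-2.50), Egr2 (-2.45), Ehhadh (-2.34), Nlrp3 (-2.23), Slc13a1 (-2.08) and Gldc (-2.07). Values further towards 0 were those of Casp4 (-1.98), Cyp2e1 (-1.97), Arntl (-1.97), Krt19 (-1.96), Aldh1a7 (-1.95), Hspb1 (-1.88), Acot12 (-1.83), Slc5a12 (-1.78), Ugt2b38 (-1.75) and Psat1 (-1.70). Then followed Thbd (-1.64), Slc37a4 (-1.58), Herpud1 (-1.50), Slc4a4 (-1.46), Usp2 (-1.34), Ndrg1 (-1.32), Hspa4l (-1.29), Tnfrsf12a (-1.26), Pex11a (-1.16) and Gdf15 (-1.14). Smaller in size were Acta2 (-1.10), Gclc (-1.08), Slc27a2 (-1.03), Idh1 (-0.98), Cd55 (-0.95), Creld2 (-0.93), Mertk (-0.80), Hsp90aa1 (-0.74) and Foxred2 (-0.73). The smallest in size belonged to Gpx1 (-0.55), Scnn1g (-0.50) and Gpx3 (-0.42).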

How the results depend on the processing

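With 2 arrays a group, the number of arrays limits every count, and genes that were not well above background in each group did not enter. The 1168 calls became between 909 and 1405 under quantile normalization, normexp, the deposited log2 table, the filters on both arrays of at least 1 group and on all 8 arrays, array weights, the replicate block and the mean of probes. Tested singly, 1532 probes of 1347 genes passed. The fit of the deposited table took its intensity trend from the scanner values, since that table is centred per gene. With no filter on dim probes 546 were called (326 positive, 220 negative), and the median interaction of all genes shifted to 0.109. With no intensity trend 687 were called (408 positive, 279 negative). The replicate block called 1405, of which 1067 were among the 1168, and 50.7% of its calls were positive, against 57.0% without it. It ended the calls of Hpd and Bak1 among the genes named here and raised Maff, Cdkn1a and Ddit4 past the threshold. Without 1 array the count ran from 1 to 1518, the positive count from 0 to 795 and the negative count from 1 to 723. The lowest counts were 1 without KD IRI replicate 2 (limma, 0 positive, with 3248 genes at an unadjusted p under 0.05 and 1696 of them positive), 2 without WT normal replicate 2, 3 without WT normal replicate 1, 152 without KD IRI replicate 1 (57 positive, 95 negative) and 355 without KD normal replicate 2 (170 positive, 185 negative). The share of called genes carried by 1 group, 42.5%, ran from 33.3% to 100% in those fits, the last from a single gene. The interaction changed sign, without a call on either side, for Havcr1 (0.24 with normexp, and between -0.81 and 0.21 without 1 array), Nfe2l2 (between -0.17 and 0.19), Gclm (between -0.12 and 0.21) and Keap1 (between -0.29 and 0.0089). Over all alternatives the adjusted p ran from 0.0359 to 0.186 for Nqo1 (lowest under quantile normalization), from 0.0469 to 0.261 for Txnrd1, from 0.0307 to 0.191 for Maff, from 0.0256 to 0.193 for Cdkn1a and from 0.0403 to 0.148 for Hpd. Of the 87 called genes named singly, 60 lost their call with no filter on dim probes, 38 with no intensity trend and 15 with normexp, and at most 6 under any other setting that kept all 8 arrays. Cdc20, Slc34a1, Ppara, S100a9 and Chil3, which were not called, each passed the threshold in 1 alternative. The cause of these changes was not tested.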

Other observations

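The smallest adjusted p of all genes tested belonged to the probe A_51_P250217, which the name table does not list. It was at 3.87 and 3.69 in KD IRI kidneys, 7.21 and 7.31 in KD normal kidneys, 6.13 and 6.36 in WT IRI kidneys and 6.80 and 6.73 in WT normal kidneys. KD IRI stood far below the other groups, and the interaction was -2.96 ± 0.15 (SE, adjusted p = 0.00349, limma). Its call was kept in the fits without KD IRI replicate 2, without WT normal replicate 1 and without WT normal replicate 2, in which no more than 3 genes passed. Of the 1168 called genes 933 had a symbol, so the probes named above do not cover all of the strongest calls.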
